A study of Mus musculus with 12 samples.

Results

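Genes of the extracellular matrix and of the hepatic stellate cell were followed in mouse liver under 2 genotypes and 2 diets. The set held 38 genes: chains of collagens and laminins, other matrix proteins, cross-linking enzymes, metalloproteinases and their inhibitors, growth factors, growth factor receptors and markers of stellate cells and myofibroblasts. A gene was represented by the probe set that named it and no other gene, and by the brightest one where there were several. This gave 37 of the 38 genes, among 22180 genes measured this way. Fbn1 was not analysed here. Of the 37, 35 were tested, among 14031 genes tested in all, because Lox and Timp1 lay below the filter on dim genes on all 12 arrays. Tgfb2 passed that filter on 4 arrays only, and Col5a2 and Thbs1 passed it on 10.

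Total liver RNA was measured on Affymetrix whole-transcript arrays, 3 per group. The mice were males of a C57BL/6 background, either wild-type or Pparβ/δ-null (lacking Ppard, which encodes the nuclear receptor PPARβ/δ), and were age-matched at 8 to 10 weeks. Per the labels, the wild-type control and null control groups received a liquid control diet for 16 weeks, and the wild-type ethanol and null ethanol groups one containing 4% (v/v) ethanol for as long, each after a run-in on the control diet. The null allele is carried by every cell of the animal, so it is not specific to stellate cells. The study fed 10 mice per group. Whether each array stands for its own mouse is not stated in the labels, and every SE and p-value therefore reflects how far these samples spread, which may be technical. In RNA of whole liver, fewer cells of a type and less RNA per cell cannot be told apart.

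The hepatic stellate cell stores retinyl esters in the space between sinusoidal endothelium and hepatocytes. During chronic injury it can turn into a myofibroblast that secretes fibrillar collagen, matrix glycoproteins and tissue inhibitors of metalloproteinases (TIMPs), and this deposition is the basis of liver fibrosis. Transforming growth factor β1 is the best known driver of that change, platelet-derived growth factor drives the cells to divide, and alcohol is a common cause of the injury.

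Only 2 of the 35 genes tested passed in any comparison, Sparc and Tgfb1. Their promoters are shown because both calls were differences between genotypes. The 250 bases before the transcription start are printed 5′ to 3′ on the gene's strand, from RefSeq with build GRCm38.p6. The window of Sparc is chr11:55420081-55420330 on the minus strand, and that of Tgfb1 is chr7:25686752-25687001 on the plus strand. Capitals mark the GC box, GGGCGG, on either strand.
Sparc: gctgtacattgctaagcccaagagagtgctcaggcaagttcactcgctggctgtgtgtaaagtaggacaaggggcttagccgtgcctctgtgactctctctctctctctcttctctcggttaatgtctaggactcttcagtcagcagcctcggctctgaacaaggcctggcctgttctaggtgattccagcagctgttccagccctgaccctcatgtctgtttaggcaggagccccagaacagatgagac
Tgfb1: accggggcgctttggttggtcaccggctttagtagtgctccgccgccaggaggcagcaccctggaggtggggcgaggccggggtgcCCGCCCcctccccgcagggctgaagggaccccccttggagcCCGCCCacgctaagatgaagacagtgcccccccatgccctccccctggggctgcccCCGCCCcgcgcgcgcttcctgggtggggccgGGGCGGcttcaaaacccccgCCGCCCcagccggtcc
The Tgfb1 window held 5 GC boxes and the Sparc window none. Such a window was available for 25 of the 38 genes, and 15 of these (60%) held a GC box, against 35.4% of 27025 genes with a window. An AP-1 site (TGANTCA, either strand) was found for 2 of the 25 (8%; 7.82% of all genes), in Col6a1 and Ecm1. A TATA box (TATAAA, either strand) was found for 4 (16%; 14.3% of all genes), in Col3a1, Ecm1, Tgfb2 and Vim. The SMAD palindrome GTCTAGAC and a DR1 element, the kind that PPARs bind, searched as 2 copies of AGGTCA with 1 base between them (either strand), were in 0 of the 25 windows (0.2% and 0.0407% of all genes). These searches describe letters in a short window and were not linked to the measured values.

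Array medians lay between 5.55 and 5.62 on the log2 scale. The second null control array had the highest value of the 12 arrays for 14 of the 35 genes, while it was the highest for 11.8% of all genes tested. The third wild-type control array had the lowest value for 10 of the 35 (11.2% of all genes), and the first null ethanol array for 9 (7% of all genes). Several counts, medians and calls that rest on these arrays are also given without them. Other results are given only with them, among them the changes of Lum, Mmp2 and Pdgfrb, the counts of groups not overlapping and the order of group means. Ppard itself read 7.64 to 8.01 on the wild-type arrays and 7.69 to 8.06 on the null arrays. No source used here says whether its probes overlap the deleted stretch, and Ppard therefore checks no genotype label. None of the 38 genes lies on chromosome 17, where Ppard is (0 of 38).

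**Figure D1:**
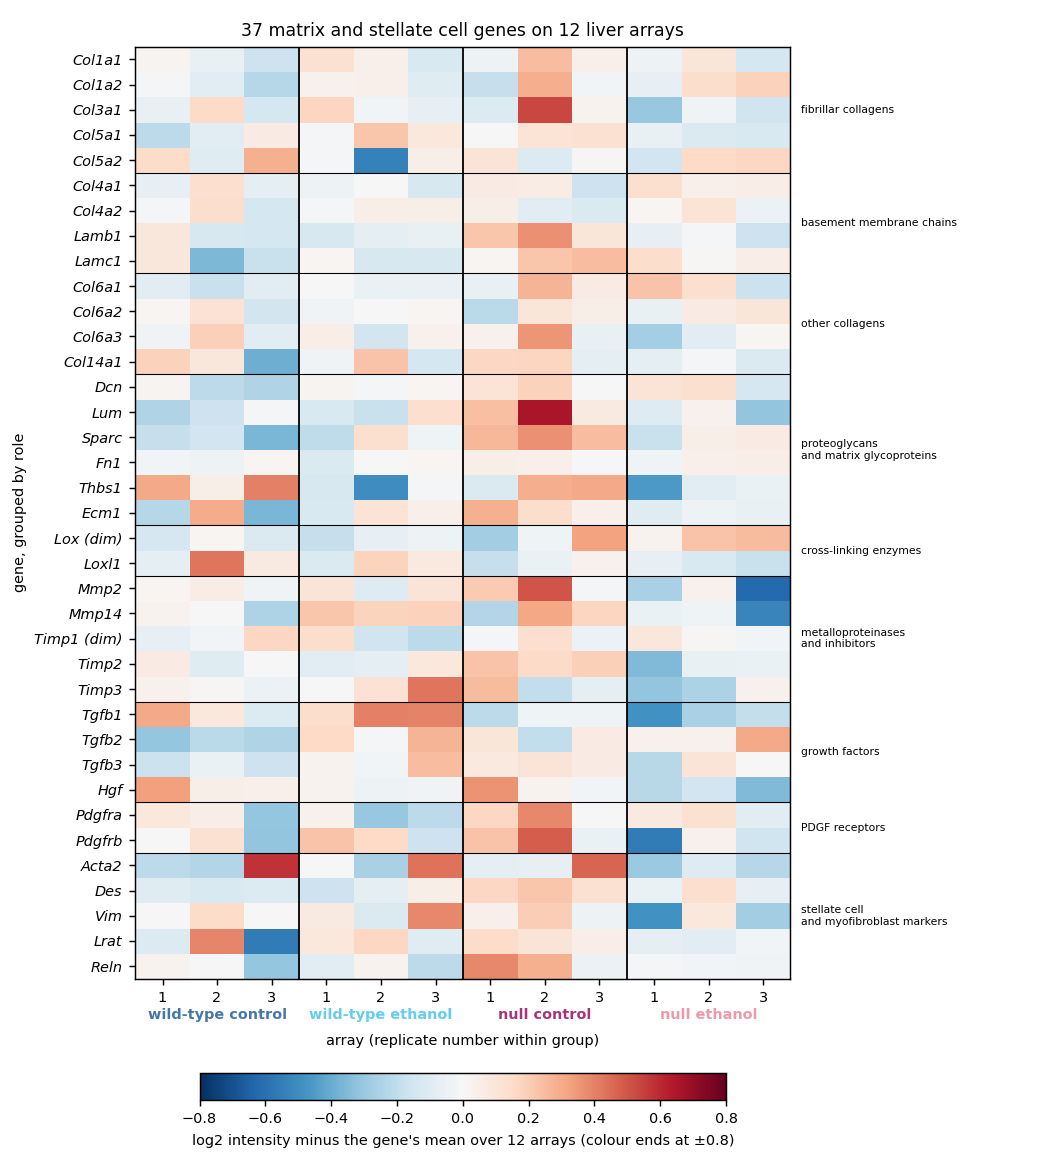
Log2 intensity of 37 matrix and stellate cell genes, as the difference from each gene's mean over the 12 arrays (rows, grouped by role; columns, 3 arrays per group; red higher, blue lower). The second null control array is reddest, with the highest value for 14 of the 35 genes tested, and no group of arrays stands apart for all genes.

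Marker genes of stellate cells gave signal above the filter in this tissue. Of 15 such genes, 13 had a probe set naming 1 gene and all 13 passed the filter on dim genes, among them Lrat, Reln, Des, Cygb, Hand2 and Lhx2. Of all 22180 genes, 14031 passed it. A pass does not show which cells the signal came from. The summed linear intensity of the 13 was 3736 to 4526 in the wild-type control arrays, 4049 to 4487 in the wild-type ethanol arrays, 3887 to 4307 in the null control arrays and 3596 to 3793 in the null ethanol arrays. This sum includes Colec11, which was called lower in null mice (below), and no sum without it was taken. The median log2 deviation of the 13 from their own means was -0.149 to 0.092, -0.085 to 0.078, 0.005 to 0.168 and -0.081 to -0.06 in the same order.

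With ethanol in wild-type mice, no matrix or stellate cell gene passed the test. The limma test called 0 of 35 (smallest adjusted p = 0.154), against 0.0927% of all genes tested. At an unadjusted p under 0.05 there were 2 of 35, Tgfb2 (higher) and Thbs1 (lower), against 14.5% of all genes. The 3 ethanol and 3 control arrays did not overlap for 6 of the 35 (4 higher and 2 lower), against 19.4% of all genes. Log2 changes were positive for 24 genes and negative for 11 (51.3% of all genes were negative), with a median of 0.06 against -0.01 over all genes. The count at an unadjusted p rested on single arrays, with 1 to 4 higher and 0 to 2 lower genes when 1 was left out. With arrays weighted by their quality it was 4 higher and 1 lower, and Tgfb2 passed the adjusted threshold (0.42, limma adjusted p = 0.0377). Without the third wild-type control array, 17 changes were positive and the median was -0.00 (unrounded, -0.0033).

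With ethanol in null mice, the test again called 0 of 35 (limma, smallest adjusted p = 0.293), against 0.00713% of all genes. At an unadjusted p under 0.05 there were 8 of 35, against 12.2% of all genes. All 8 were lower, against 8.37% of all genes for that direction. They were Timp2, Mmp2, Lamb1, Hgf, Lum, Sparc, Pdgfrb and Thbs1. The ethanol arrays lay below all control arrays for 9 of the 35 and above them for 0, against 18.6% of all genes not overlapping in either direction. Log2 changes were negative for 29 of the 35, against 61.9% of all genes, with a median of -0.17 against -0.05. The count was 5 without the second null control array and 5 without the first null ethanol array.

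**Figure D2:**
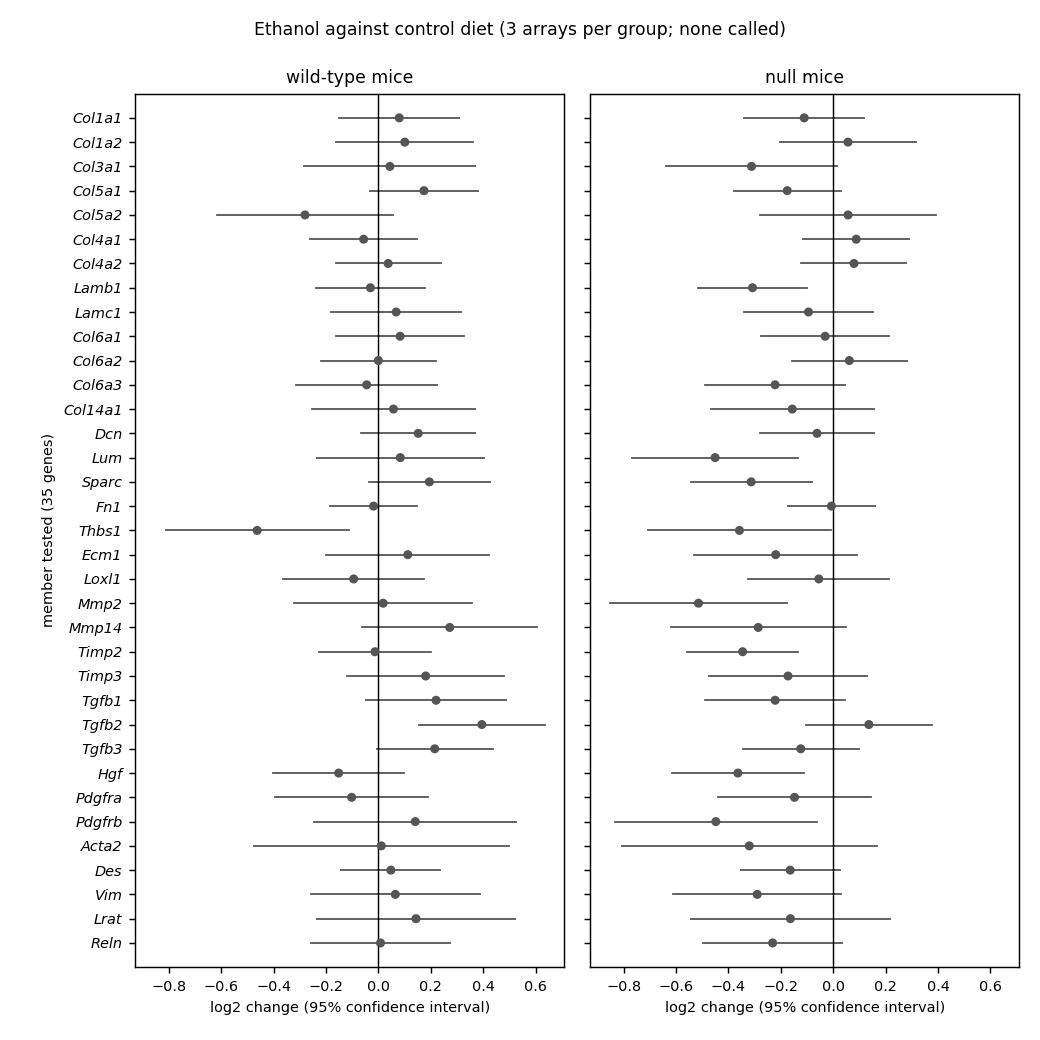
Log2 change with ethanol in wild-type mice (left) and null mice (right) for the 35 genes tested; points are limma estimates from 3 arrays per group and bars 95% confidence intervals. Of the 35 estimates, 24 lie above 0 in wild-type mice and 29 lie below 0 in null mice, and none passed the adjusted threshold.

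On the control diet, Sparc was higher in null than in wild-type mice and was the only gene of the set called (1 of 35, against 5.10% of all genes; limma adjusted p under 0.05). At an unadjusted p under 0.05 there were 8 of 35, against 22.1% of all genes. All 8 were higher in null mice, against 13.1% of all genes for that direction. They were Sparc, Des, Lum, Lamb1, Lamc1, Reln, Dcn and Tgfb2. The null control arrays lay above all wild-type control arrays for 8 of the 35 and below them for 0, against 24.7% of all genes not overlapping. Log2 differences were positive for 26 genes and negative for 9 (48.1% of all genes were negative), with a median of 0.16 against 0.01 over all genes. This median was 0.10 without the third wild-type control array and 0.09 without the second null control array, and without the latter the count at an unadjusted p was 4.

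On the ethanol diet, Tgfb1 was lower in null than in wild-type mice and was the only gene of the set called (1 of 35, against 1.79% of all genes). At an unadjusted p under 0.05 there were 4 of 35, against 16.2% of all genes. All 4 were lower, against 10.2% of all genes for that direction, and they were Tgfb1, Mmp14, Timp3 and Vim. The count was 2 without the first and 2 without the third null ethanol array, and 2 with quantile normalisation added. Groups did not overlap for 5 of the 35 (1 higher and 4 lower), against 24.1% of all genes. Log2 differences were negative for 21 of the 35, against 54.5% of all genes, with a median of -0.07 against -0.02 over all genes.

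**Figure D3:**
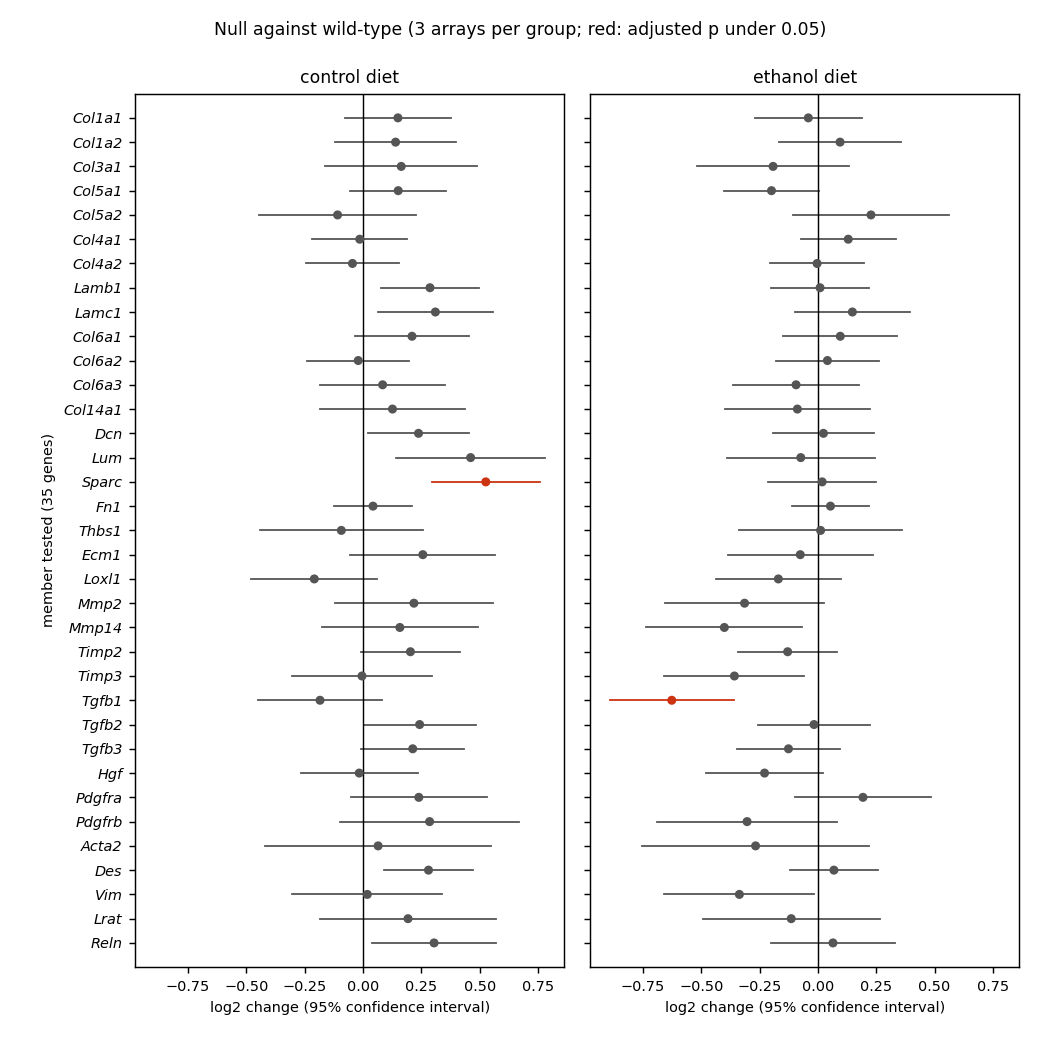
Log2 difference of null against wild-type mice on the control diet (left) and the ethanol diet (right) for the 35 genes tested, with 95% confidence intervals from limma (3 arrays per group). Sparc on the control diet and Tgfb1 on the ethanol diet (red) passed the adjusted threshold, and 26 estimates lie above 0 on the left against 14 on the right.

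Whether ethanol acted differently in the 2 genotypes was tested with the interaction, the ethanol change in null mice minus that in wild-type mice. It called 0 of 35 (limma, smallest adjusted p = 0.206), against 0.0143% of all genes. At an unadjusted p under 0.05 there were 9 of 35, against 15% of all genes, and all 9 were negative, against 10.3% of all genes for that direction. These were Sparc, Col5a1, Lum, Mmp14, Tgfb1, Mmp2, Timp2, Tgfb3 and Pdgfrb. With quantile normalisation added the count was 4. It was also 4 without the third wild-type ethanol array, and 5 without the third wild-type control, the second null control or the first null ethanol array. The interaction was negative for 28 of the 35, against 56% of all genes, with a median of -0.24 against -0.04 over all genes. The 4 pairwise comparisons share arrays: the null control arrays enter both the ethanol change in null mice and the genotype difference on the control diet, so those are not independent views of the same genes.

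Averaged over genotypes, ethanol called 0 of 35 (limma, smallest adjusted p = 0.237), against 0.0143% of all genes, with 6 of 35 at an unadjusted p under 0.05 (12.1% of all genes; 1 higher and 5 lower, the latter 2 without the first wild-type control or first wild-type ethanol array). Averaged over diets, genotype called 2 of 35, Tgfb1 and Sparc, against 7.0% of all genes, with 6 of 35 at an unadjusted p under 0.05 (21.4% of all genes; 5 higher and 1 lower, or 3 to 8 and 1 to 3 when 1 array was left out). The highest of the 4 group means was that of null control for 20 of the 35, against 30.2% of all genes. Null ethanol had the lowest mean for 14 and wild-type control for 13, against 32.1% and 28% of all genes.

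**Figure D4:**
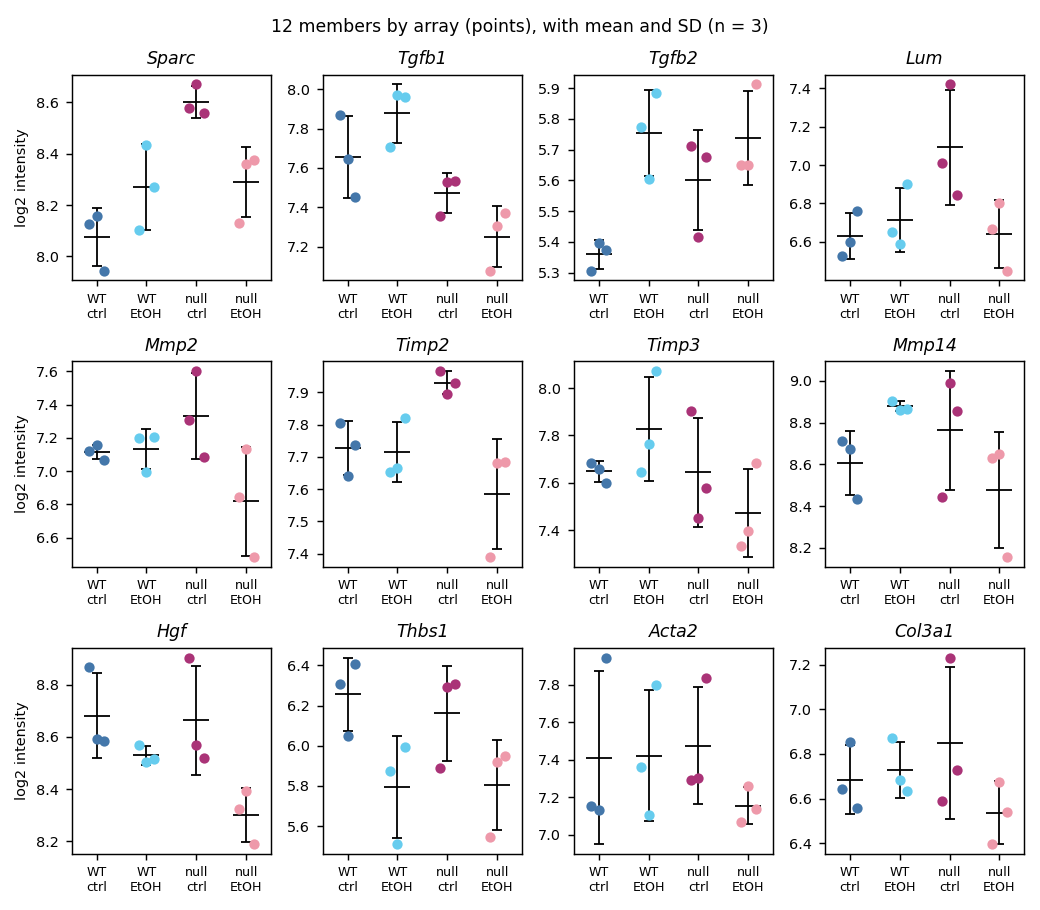
Log2 intensity of 12 of the genes on each array (points; WT, wild-type; ctrl, control diet; EtOH, ethanol diet), with group means and SD (n = 3). The null control arrays of Sparc (8.56 to 8.67) lie above all others, and the null ethanol arrays of Tgfb1 (7.08 to 7.37) lie below all wild-type ethanol arrays.

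The fibrillar collagens, the rope-forming chains that make up most scar, gave 0 calls of 5 in each comparison. Over all genes 0.00713% to 7.0% were called, by comparison. In so small a group 0 calls therefore say little, here and in the groups below. Col1a1, the α1 chain of type I collagen, had log2 intensities of 6.73, 6.65 and 6.55 in wild-type control, 6.83, 6.75 and 6.59 in wild-type ethanol, 6.67, 6.95 and 6.75 in null control and 6.67, 6.81 and 6.57 in null ethanol. All 4 groups overlapped. Its ethanol change was 0.08 ± 0.11 (SE) in wild-type mice and -0.11 ± 0.11 in null mice, with 95% confidence intervals from -0.15 to 0.31 and from -0.34 to 0.12. Col3a1, the chain of type III collagen that forms the reticular fibres of liver, had 6.64, 6.86 and 6.56 in wild-type control, 6.87, 6.68 and 6.64 in wild-type ethanol, 6.59, 7.23 and 6.73 in null control and 6.40, 6.68 and 6.54 in null ethanol. The second null control array was the highest of all. The ethanol change of Col3a1 in null mice was -0.31 ± 0.15 (limma adjusted p = 0.425), and its genotype difference on the control diet was 0.16 ± 0.15, or -0.03 without that array.

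Col5a1, a chain of type V collagen, which sets the diameter of collagen fibrils, had 6.45, 6.57 and 6.72 in wild-type control and 6.64, 6.88 and 6.74 in wild-type ethanol. It had 6.65, 6.76 and 6.77 in null control and 6.59, 6.54 and 6.53 in null ethanol, so the null ethanol arrays lay below all null control and all wild-type ethanol arrays. Its interaction was -0.35 ± 0.13 (unadjusted p = 0.0215, limma adjusted p = 0.265). A second, dimmer probe set of Col5a1 (log2 5.47 to 6.07) ran the other way, with ethanol changes of -0.24 in wild-type and 0.13 in null mice. With the mean of both probe sets the interaction was 0.01. Col1a2, the partner chain of Col1a1, differed by 0.10 ± 0.12 with ethanol in wild-type mice and by 0.06 ± 0.12 in null mice. For Col5a2, the other type V chain, these changes were -0.28 ± 0.16 and 0.06 ± 0.16.

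Of the basement membrane chains, 0 of 4 were called in any comparison. The type IV collagens Col4a1 and Col4a2, the network formers of basement membrane, had ethanol changes between -0.06 and 0.09 in both genotypes. Lamb1, the laminin β1 chain, had 7.14, 6.93 and 6.91 in wild-type control, 6.92, 6.97 and 6.99 in wild-type ethanol, 7.27, 7.41 and 7.15 in null control and 6.99, 7.04 and 6.88 in null ethanol. The 3 null control arrays were the highest 3 of the 12. Lamb1 thus differed by -0.31 ± 0.10 with ethanol in null mice (limma adjusted p = 0.293) and by 0.29 ± 0.10 between genotypes on the control diet (adjusted p = 0.103), and neither passed. Lamc1, the laminin γ1 chain, had 7.98, 7.53 and 7.71 in wild-type control, 7.90, 7.76 and 7.76 in wild-type ethanol, 7.90, 8.11 and 8.14 in null control and 8.03, 7.89 and 7.94 in null ethanol. Its groups overlapped, and its genotype difference averaged over diets was 0.23 ± 0.08 (limma adjusted p = 0.114). Without the first wild-type control array that difference was 0.29 and passed (adjusted p = 0.041).

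The other collagens were the 3 chains of the microfibrillar type VI collagen and Col14a1, a fibril-associated collagen, and 0 of these 4 were called in any comparison. Their ethanol changes ran from -0.04 to 0.08 in wild-type mice and from -0.22 to 0.06 in null mice. Col6a1 was higher in each null control array (7.08, 7.42 and 7.20) than in any wild-type control array (7.06, 6.96 and 7.05), a difference of 0.21 ± 0.11 (limma adjusted p = 0.297). Col14a1 spanned 8.00 to 8.62 over the 12 arrays, and its lowest value was on the third wild-type control array.

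Among proteoglycans and matrix glycoproteins, Sparc was called. Sparc encodes osteonectin, a collagen-binding glycoprotein that acts in the assembly of fibrillar matrix. Its log2 intensities were 8.13, 8.16 and 7.95 in wild-type control, 8.10, 8.44 and 8.27 in wild-type ethanol, 8.58, 8.67 and 8.56 in null control and 8.13, 8.36 and 8.38 in null ethanol. Every null control array lay above the other 9 arrays, and the remaining groups overlapped. Sparc was 1.44-fold higher in null than in wild-type mice on the control diet (log2 0.53 ± 0.11, limma adjusted p = 0.0163). On the ethanol diet the difference was 0.02 ± 0.11 (adjusted p = 0.953). The interaction was -0.51 ± 0.15 (unadjusted p = 0.0052, adjusted p = 0.206) and did not pass, so a difference between diets was not shown. The ethanol change of Sparc was 0.19 ± 0.11 in wild-type mice and -0.31 ± 0.11 in null mice (adjusted p = 0.429 and 0.319). The call on the control diet held in 10 of 12 fits that left out 1 array. Leaving out an ethanol-diet array cannot move this difference, which then stayed at 0.53. The call was lost without the third wild-type control array (0.46, limma adjusted p = 0.0657) and without the second null control array (0.49, adjusted p = 0.081). Averaged over diets, Sparc was 1.21-fold higher (0.27 ± 0.08, adjusted p = 0.0482), a call that held in 3 of those 12 fits, without the second wild-type control, the second wild-type ethanol or the first null ethanol array. In the other 9 its value was 0.23 to 0.28. The call was also lost without the filter on dim genes (limma adjusted p = 0.0939) and with arrays centred on their median (limma adjusted p = 0.0643). Of 40 tested genes beside Sparc on chromosome 11, taken by order as 20 on each side, 7 (17.5%) were called for genotype averaged over diets. This compares with 7.0% of all genes.

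Lum encodes lumican, a small proteoglycan that spaces collagen fibrils. It had 6.53, 6.60 and 6.76 in wild-type control, 6.65, 6.59 and 6.90 in wild-type ethanol, 7.01, 7.42 and 6.84 in null control and 6.67, 6.80 and 6.45 in null ethanol. The null control arrays lay above all wild-type control and all null ethanol arrays, and the second of them was the highest of all. Lum differed by 0.46 ± 0.15 between genotypes on the control diet (limma adjusted p = 0.0848) and by -0.45 ± 0.15 with ethanol in null mice (adjusted p = 0.3). Thbs1, thrombospondin 1, which can activate latent TGF-β, had 6.31, 6.05 and 6.41 in wild-type control, 5.87, 5.51 and 6.00 in wild-type ethanol, 5.89, 6.29 and 6.31 in null control and 5.54, 5.92 and 5.95 in null ethanol. It was low in both ethanol groups, without overlap in wild-type mice. Thbs1 differed by -0.46 ± 0.16 with ethanol in wild-type mice and by -0.36 ± 0.16 in null mice, and by -0.41 ± 0.11 averaged (adjusted p = 0.226, 0.4 and 0.237). Its dim signal, below the filter on 2 arrays, limits these values.

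Fn1, Dcn and Ecm1 were bright members of the group, and 0 of these 3 were called. Fn1, fibronectin, which hepatocytes also secrete into plasma, read between 13.11 and 13.28 on all 12 arrays, and its 4 pairwise changes lay between -0.02 and 0.05. Dcn, decorin, a proteoglycan that binds collagen and TGF-β, read between 11.65 and 12.07, with a genotype difference of 0.24 ± 0.10 on the control diet (limma adjusted p = 0.189). Ecm1, a matrix protein that holds TGF-β in its latent form in liver, read between 10.29 and 10.95 and differed by 0.26 ± 0.14 there. Its second wild-type control array, at 10.95, stood above the other wild-type control arrays (10.43 and 10.29), and without it the difference was 0.45 and passed (adjusted p = 0.0208).

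Of the lysyl oxidases, which cross-link collagen and elastin, Lox was dim on every array (4.51 to 5.11, with the filter at 5.61 to 5.72) and was not tested. Loxl1 differed by no more than 0.21 in size in the 4 pairwise comparisons, was lower in null mice on both diets (-0.21 ± 0.12 and -0.17 ± 0.12) and did not pass in either (limma adjusted p = 0.351 and 0.545).

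The metalloproteinases and their inhibitors gave 0 calls among the 4 tested. Timp1, the inhibitor most used as a transcript marker of liver fibrosis, stayed dim in every group. It had 4.67, 4.72 and 4.90 in wild-type control, 4.88, 4.58 and 4.53 in wild-type ethanol, 4.72, 4.87 and 4.69 in null control and 4.83, 4.75 and 4.72 in null ethanol. All groups overlapped below the filter, so no fold is given for Timp1.

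Timp2, an inhibitor that also takes part in activating MMP2 at the cell surface, had 7.81, 7.64 and 7.74 in wild-type control, 7.65, 7.67 and 7.82 in wild-type ethanol, 7.97, 7.89 and 7.93 in null control and 7.39, 7.68 and 7.68 in null ethanol. The null control arrays were the highest 3 of the 12. Timp2 differed by -0.35 ± 0.10 with ethanol in null mice, the smallest p of the set in that comparison (unadjusted p = 0.00379, limma adjusted p = 0.293), and by -0.01 ± 0.10 in wild-type mice. Mmp2, gelatinase A, a product of stellate cells, had 7.12, 7.16 and 7.07 in wild-type control, 7.20, 6.99 and 7.20 in wild-type ethanol, 7.31, 7.60 and 7.09 in null control and 6.84, 7.13 and 6.48 in null ethanol. The null arrays were widely spread on both diets and overlapped. Its ethanol change was 0.02 ± 0.16 in wild-type mice and -0.51 ± 0.16 in null mice (adjusted p = 0.293).

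Mmp14, the membrane-bound collagenase that activates MMP2, had 8.71, 8.68 and 8.43 in wild-type control, 8.91, 8.86 and 8.87 in wild-type ethanol, 8.44, 8.99 and 8.86 in null control and 8.63, 8.65 and 8.15 in null ethanol. In ethanol-fed mice every null array lay below every wild-type array. Mmp14 differed by -0.40 ± 0.15 there (limma adjusted p = 0.22) and had an interaction of -0.56 ± 0.22 (adjusted p = 0.27). Timp3, the matrix-bound inhibitor, had 7.68, 7.66 and 7.60 in wild-type control, 7.65, 7.76 and 8.07 in wild-type ethanol, 7.90, 7.45 and 7.58 in null control and 7.33, 7.39 and 7.68 in null ethanol. Its ethanol groups overlapped, and it differed by -0.36 ± 0.14 between genotypes on ethanol (adjusted p = 0.223). With arrays weighted by their estimated quality this value was -0.46 and passed (adjusted p = 0.0424).

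Tgfb1 was the growth factor called. It encodes transforming growth factor β1, which many liver cells make, macrophages included. Its log2 intensities were 7.87, 7.65 and 7.45 in wild-type control, 7.70, 7.97 and 7.96 in wild-type ethanol, 7.36, 7.53 and 7.53 in null control and 7.08, 7.30 and 7.37 in null ethanol. On ethanol every null array lay below every wild-type array, while on the control diet the groups overlapped. Tgfb1 was 1.54-fold lower in null mice on ethanol (log2 -0.63 ± 0.12, limma adjusted p = 0.0212). On the control diet the difference was -0.18 ± 0.12 (adjusted p = 0.411), and averaged over diets it was 1.32-fold lower (-0.41 ± 0.09, adjusted p = 0.014). The interaction was -0.44 ± 0.17 (unadjusted p = 0.025, adjusted p = 0.272), so a difference between diets was not shown. Tgfb1 changed with ethanol by 0.22 ± 0.12 in wild-type mice and by -0.22 ± 0.12 in null mice, and neither passed (adjusted p = 0.437 and 0.474). The averaged call held in all 12 fits that left out 1 array (-0.46 to -0.35). The call on ethanol held in 8 of them, but leaving out a control-diet array cannot move this difference, which then stayed at -0.63. Among fits without an ethanol-diet array, the call held only without the first wild-type or the third null array. It was lost without the second or the third wild-type ethanol array (-0.58 and -0.59, adjusted p = 0.102 and 0.106) and without the first or second null ethanol array (-0.54 and -0.65, adjusted p = 0.0882 and 0.0559). Of 40 tested genes beside Tgfb1 on chromosome 7, taken by order as 20 on each side, 5 (12.5%) were called for genotype averaged over diets. This compares with 7.0% of all genes.

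Markers of macrophages and Kupffer cells, the resident macrophages of liver, were lower in null mice. Averaged over diets, 12 of the 14 tested of 16 listed were called lower, against 7.0% of all genes called in either direction. Among them were Cd5l (-0.94 ± 0.12), Adgre1 (-0.85 ± 0.15), Vsig4 (-0.83 ± 0.17), Marco (-0.73 ± 0.11) and Clec4f (-0.42 ± 0.10). The count was 6 lower on the control diet and 1 on ethanol, against 5.10% and 1.79% of all genes called in either direction. Averaged over diets it was 5 without the third wild-type ethanol or first null ethanol array, 6 without the first wild-type control array, and 7 without the second wild-type ethanol or second null control array. On the control diet it was 1 without the second null control and 2 without the first wild-type control array, and on ethanol 0 to 3. With array weights 11 were lower on the control diet and 6 on ethanol, and without the filter on dim genes 3 on the control diet. Without the second wild-type control and second null control arrays together, 1 was lower on the control diet and 6 averaged. For these other settings the shares of all genes called are not given here, so the counts are not set against them. The summed linear intensity of the 14 tested markers was 6269 to 9045 in wild-type control, 7886 to 10047 in wild-type ethanol, 3996 to 5392 in null control and 5122 to 7313 in null ethanol. Ccr2 and Ly6c2 were dim and not in the sum. All 14 were lower in null mice on each diet, with a median of -0.57 on the control diet and -0.45 on ethanol. The Tgfb1 difference was the smaller one on the control diet. With ethanol all 14 changes were positive in null mice (median 0.34), where that of Tgfb1 was negative. In wild-type mice 12 were positive and 2 negative (median 0.23), and that of Tgfb1 was positive. The part of these cells in the Tgfb1 difference was not tested.

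Tgfb2, a second isoform of the TGF-β family, had the smallest p of the set with ethanol in wild-type mice. It had 5.31, 5.40 and 5.37 in wild-type control, 5.77, 5.60 and 5.88 in wild-type ethanol, 5.71, 5.42 and 5.68 in null control and 5.65, 5.65 and 5.91 in null ethanol. The 3 wild-type control arrays were the lowest 3 of the 12. Tgfb2 differed by 0.39 ± 0.11 with ethanol in wild-type mice (unadjusted p = 0.00357, limma adjusted p = 0.154), and by 0.14 ± 0.11 in null mice. With arrays weighted by quality the first value was 0.42 and passed (adjusted p = 0.0377). Since 8 of its 12 values lay below the filter, background limits its size. Tgfb3, another isoform, had 6.03, 6.15 and 6.03 in wild-type control, 6.23, 6.18 and 6.45 in wild-type ethanol, 6.28, 6.30 and 6.27 in null control and 5.98, 6.30 and 6.20 in null ethanol. The wild-type control arrays lay below all wild-type ethanol and all null control arrays. It differed by 0.21 ± 0.10 with ethanol in wild-type mice (adjusted p = 0.359).

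Hgf encodes hepatocyte growth factor, the hepatocyte mitogen that stellate cells secrete. It had 8.87, 8.59 and 8.58 in wild-type control, 8.57, 8.50 and 8.52 in wild-type ethanol, 8.90, 8.57 and 8.52 in null control and 8.32, 8.39 and 8.19 in null ethanol. Both ethanol groups lay below the control group of their genotype, and the null ethanol arrays were the lowest 3 of the 12. Hgf differed by -0.15 ± 0.12 with ethanol in wild-type mice, by -0.36 ± 0.12 in null mice (limma adjusted p = 0.293) and by -0.26 ± 0.08 averaged (adjusted p = 0.274), none of which passed.

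The receptors of platelet-derived growth factor are the surface marks of quiescent and activated stellate cells and fibroblasts, and 0 of 2 were called in any comparison. Pdgfrb, the β receptor, ranged from 7.06 on the first null ethanol array to 8.10 on the second null control array, with a median of 7.63. It differed by -0.45 ± 0.18 with ethanol in null mice (limma adjusted p = 0.362). Pdgfra, the α receptor, differed by 0.24 ± 0.13 and 0.19 ± 0.13 between genotypes on the control and ethanol diets, and by 0.22 ± 0.10 averaged (unadjusted p = 0.0413, adjusted p = 0.209).

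Among stellate cell and myofibroblast markers, 0 of 5 were called in any comparison. Acta2, the smooth muscle actin that marks myofibroblasts, had 7.16, 7.13 and 7.94 in wild-type control, 7.36, 7.11 and 7.80 in wild-type ethanol, 7.29, 7.30 and 7.83 in null control and 7.07, 7.26 and 7.14 in null ethanol. In each group but null ethanol the third array stood well above the other 2. The ethanol change of Acta2 was 0.01 ± 0.22 in wild-type mice (95% confidence interval -0.47 to 0.50) and -0.32 ± 0.22 in null mice (limma adjusted p = 0.571). In wild-type mice it was -0.18 without the third wild-type ethanol array, and leaving out other single arrays turned its sign as well. Of the 8 smooth muscle markers tested, 4 had their highest value of the group on the third array in wild-type control, 3 in wild-type ethanol and 6 in null control. On the third null ethanol array 3 of the 8 were highest. Any array of a group is the highest for some genes by chance alone, and the share over all genes was not counted, so these counts carry little weight. The part of smooth muscle in the Acta2 values was not tested.

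Lrat, the enzyme that esterifies retinol for storage and a defining gene of quiescent stellate cells, had 8.32, 8.82 and 7.87 in wild-type control, 8.51, 8.59 and 8.33 in wild-type ethanol, 8.57, 8.53 and 8.48 in null control and 8.35, 8.34 and 8.40 in null ethanol. The wild-type control arrays spanned the whole range of the 12, while the null ethanol arrays lay below all null control arrays within narrow spreads. Lrat differed by -0.16 ± 0.18 with ethanol in null mice and by 0.14 ± 0.18 in wild-type mice (limma adjusted p = 0.72 and 0.755). Des, desmin, an intermediate filament of rodent stellate cells, had 6.85, 6.82 and 6.83 in wild-type control, 6.78, 6.87 and 6.99 in wild-type ethanol, 7.11, 7.16 and 7.06 in null control and 6.89, 7.08 and 6.88 in null ethanol. Every null control array lay above all wild-type arrays. Its genotype difference was 0.28 ± 0.09 on the control diet (adjusted p = 0.0793) and 0.17 ± 0.06 averaged (adjusted p = 0.115), and neither passed.

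Vim, vimentin, the intermediate filament of mesenchymal cells and of white blood cells, had 9.52, 9.67 and 9.53 in wild-type control, 9.59, 9.41 and 9.91 in wild-type ethanol, 9.56, 9.72 and 9.48 in null control and 9.04, 9.61 and 9.25 in null ethanol. The groups overlapped, with the lowest value on the first null ethanol array. Vim differed by -0.34 ± 0.15 between genotypes on ethanol (limma adjusted p = 0.287). Reln, reelin, a secreted glycoprotein of quiescent stellate cells, ranged from 9.19 to 9.89 and differed by 0.30 ± 0.12 between genotypes on the control diet (adjusted p = 0.168).

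Other genes of the same pathways were read from 7 lists with 144 genes, of which 134 had a probe set naming 1 gene and 120 were tested. Ethanol called 0 of the 120 in wild-type mice, in null mice and on average, and the interaction called 0 (limma). Genotype called 3 higher and 3 lower on the control diet, 0 higher and 6 lower on ethanol, and 6 higher and 6 lower averaged over diets. These were 5%, 5% and 10% of the 120, against 5.10%, 1.79% and 7.0% of all genes tested. Over single arrays left out, the counts on the control diet were 1 to 7 higher and 2 to 4 lower. On ethanol they were 1 to 6 lower, with 1 left without the second wild-type ethanol or first null ethanol array, 2 without the third wild-type ethanol and 3 without the second null ethanol array. Averaged they were 2 to 6 higher, with 2 left without the first wild-type control or second null control array, and 5 to 8 lower. Ethanol in wild-type mice called 1 higher and 3 lower without the second wild-type control array. On the control diet the lowest count of higher genes came without the second null control array and the highest without the second wild-type control array. With array weights the counts were 7 higher and 5 lower on the control diet, 3 and 11 on ethanol, 9 and 13 averaged, and 2 and 2 for ethanol in wild-type mice. Without the filter on dim genes, 3 were higher averaged over diets. The shares of all genes called under these other settings are not given here. A rise or fall of these counts is therefore not read as a result about these genes.

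Enzymes of collagen maturation were called in both directions. Of 15 tested, 1 was higher and 1 lower on the control diet, 1 was lower on ethanol, and 2 were higher and 2 lower averaged over diets. These were 13.3%, 6.67% and 26.7% of the 15, beside the shares of all genes given above. Crtap, part of the complex that 3-hydroxylates prolines of collagen, had 7.22, 6.92 and 6.93 in wild-type control, 7.25, 7.27 and 7.10 in wild-type ethanol, 7.83, 7.70 and 7.69 in null control and 7.61, 7.32 and 7.58 in null ethanol. All 6 null arrays lay above all 6 wild-type arrays. Crtap was higher in null mice by 0.72 ± 0.11 on the control diet (limma adjusted p = 0.00292) and by 0.51 ± 0.08 averaged (adjusted p = 0.00187). P3h2, a prolyl 3-hydroxylase, was higher by 0.40 ± 0.11 averaged (adjusted p = 0.0431), a call that held in 3 of 12 fits without 1 array.

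The lower enzymes were P4ha1 and Plod1. P4ha1, the catalytic subunit of the prolyl 4-hydroxylase that stabilises the collagen helix, had 8.42, 8.11 and 8.50 in wild-type control, 8.04, 8.00 and 8.00 in wild-type ethanol, 7.73, 7.47 and 7.97 in null control and 7.84, 7.39 and 7.23 in null ethanol. All null arrays lay below all wild-type arrays. P4ha1 was lower by -0.57 ± 0.11 averaged (limma adjusted p = 0.00969) and by -0.62 ± 0.16 on the control diet (adjusted p = 0.0461, a call that held in 4 of 12 fits without 1 array). Plod1, the lysyl hydroxylase that prepares collagen for cross-linking, had 9.09, 9.15 and 9.07 in wild-type control, 9.42, 9.51 and 9.44 in wild-type ethanol, 8.69, 8.89 and 9.01 in null control and 8.82, 8.97 and 9.03 in null ethanol. All null arrays lay below all wild-type arrays, and the wild-type ethanol arrays were the highest. Plod1 was lower in null mice by -0.52 ± 0.10 on ethanol (adjusted p = 0.0156) and by -0.38 ± 0.07 averaged (adjusted p = 0.00531). The call on ethanol held in 9 of 12 fits, among them all that left out a control-diet array, which cannot move this difference. The call was lost without the second or the third wild-type ethanol or the first null ethanol array. The ethanol change of Plod1 in wild-type mice was 0.35 ± 0.10 (limma adjusted p = 0.143).

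**Figure D5:**
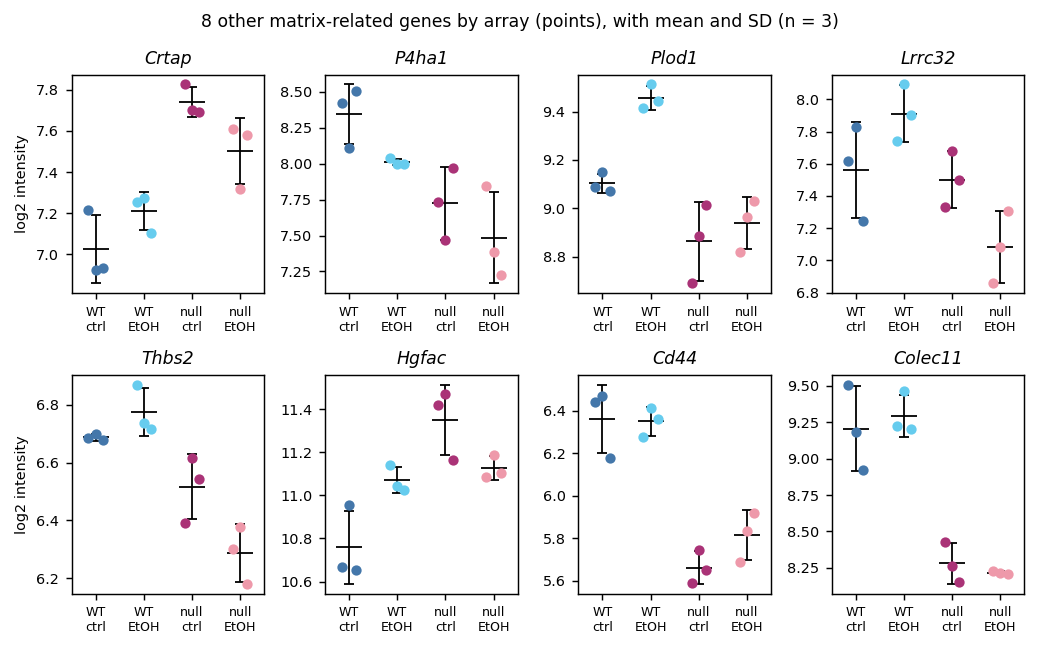
Log2 intensity of 8 further matrix-related genes on each array (points; WT, wild-type; ctrl, control diet; EtOH, ethanol diet), with group means and SD (n = 3). Crtap is higher in all 6 null arrays than in all 6 wild-type arrays, and P4ha1, Plod1, Thbs2, Cd44 and Colec11 are lower.

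In TGF-β signalling, with 20 genes tested besides the 3 ligands, 1 was lower on ethanol and 1 was higher and 1 lower averaged. These were 5% and 10% of the 20, against 1.79% and 7.0% of all genes. Lrrc32, which encodes GARP, a surface anchor of latent TGF-β, had 7.62, 7.83 and 7.24 in wild-type control, 7.74, 8.09 and 7.90 in wild-type ethanol, 7.33, 7.68 and 7.50 in null control and 6.86, 7.08 and 7.31 in null ethanol. On ethanol all null arrays lay below all wild-type arrays, and on the control diet the genotypes overlapped. Lrrc32 was lower in null mice by -0.83 ± 0.16 on ethanol (limma adjusted p = 0.019) and by -0.45 ± 0.11 averaged (adjusted p = 0.0328), calls that held in 8 and 4 of 12 fits without 1 array. The call on ethanol held in all fits that left out a control-diet array, which cannot move that difference. Furin, a protease that cleaves TGF-β precursors among many others, was higher by 0.28 ± 0.06 averaged (adjusted p = 0.017). Receptors and SMAD proteins gave no call, and the genes with the smallest p for ethanol were Skil in wild-type mice (-0.49 ± 0.18, adjusted p = 0.247) and Ltbp4 in null mice (-0.49 ± 0.15, adjusted p = 0.293).

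Of 35 other matrix proteins tested, 1 was higher on the control diet, 1 was lower on ethanol, and 2 were higher and 1 lower averaged. These were 2.86%, 2.86% and 8.57% of the 35, against 5.10%, 1.79% and 7.0% of all genes. Thbs2, thrombospondin 2, which limits collagen fibril growth, had 6.69, 6.70 and 6.68 in wild-type control, 6.87, 6.74 and 6.71 in wild-type ethanol, 6.39, 6.61 and 6.54 in null control and 6.30, 6.38 and 6.18 in null ethanol. All null arrays lay below all wild-type arrays. Thbs2 was lower by -0.49 ± 0.09 on ethanol and by -0.33 ± 0.06 averaged (limma adjusted p = 0.0144 and 0.00784). The call on ethanol held in 9 of 12 fits, among them all that left out a control-diet array, which cannot move this difference. The call was lost without the first or the second wild-type ethanol or the first null ethanol array. Thbs2 lies on chromosome 17, as Ppard does. So do Ddr1, Ltbp1, Tgif1 and Tnxb of the 7 lists. These were not called averaged over diets (limma adjusted p = 0.767, 0.961, 0.501 and 0.505). Distances to Ppard were not taken, and the part of position in the Thbs2 difference was not tested. The proteoglycan gene Agrn, agrin, was higher in null mice by 0.51 ± 0.13 on the control diet (adjusted p = 0.0403) and by 0.35 ± 0.09 averaged (adjusted p = 0.0374), calls that held in 2 and 3 of 12 fits without 1 array. Col18a1, the basement membrane collagen that contains endostatin, was higher by 0.27 ± 0.07 averaged (adjusted p = 0.0479), a call that held in 2 of 12.

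Among matrix receptors, with 14 tested, 1 was lower on the control diet, 2 on ethanol and 1 averaged. These were 7.14%, 14.3% and 7.14% of the 14, against 5.10%, 1.79% and 7.0% of all genes. Cd44, the hyaluronan receptor of leukocytes and activated stellate cells, had 6.44, 6.47 and 6.18 in wild-type control, 6.28, 6.41 and 6.36 in wild-type ethanol, 5.59, 5.74 and 5.65 in null control and 5.69, 5.84 and 5.92 in null ethanol. All null arrays lay below all wild-type arrays. Cd44 was lower by -0.70 ± 0.10 on the control diet, by -0.54 ± 0.10 on ethanol and by -0.62 ± 0.07 averaged (limma adjusted p = 0.00204, 0.0157 and 0.000195). The call on ethanol held in 8 of 12 fits without 1 array, among them all that left out a control-diet array, which cannot move this difference. The call was lost without the second or the third wild-type ethanol or the first or the second null ethanol array. Sdc1, syndecan 1, a heparan sulfate proteoglycan of hepatocytes, was lower by -0.40 ± 0.09 on ethanol (adjusted p = 0.0499), a call that held in 3 of 12 fits without 1 array.

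Partners of PDGF and HGF gave 1 call among 9 tested on the control diet and 1 averaged, both Hgfac (11.1% each, against 5.10% and 7.0% of all genes). Hgfac, the protease that activates pro-HGF, had 10.67, 10.95 and 10.65 in wild-type control, 11.14, 11.05 and 11.03 in wild-type ethanol, 11.42, 11.47 and 11.16 in null control and 11.08, 11.19 and 11.10 in null ethanol. The wild-type control arrays lay below all others. Hgfac was higher in null mice by 0.59 ± 0.11 on the control diet (limma adjusted p = 0.00859) and by 0.32 ± 0.08 averaged (adjusted p = 0.0218), calls that held in 11 and 6 of 12 fits without 1 array. Of 13 other matrix proteases tested, 0 were called in any comparison (limma). Those with the smallest p for genotype averaged over diets were Adam17 (-0.30 ± 0.09, adjusted p = 0.0608) and Plaur (0.16 ± 0.07, adjusted p = 0.233).

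Of 14 other stellate cell markers tested, only Colec11 was called (7.14% on each diet and averaged, against 5.10%, 1.79% and 7.0% of all genes). Colec11 encodes collectin 11, a secreted lectin of the complement system. It had 9.51, 9.18 and 8.92 in wild-type control, 9.22, 9.46 and 9.20 in wild-type ethanol, 8.43, 8.26 and 8.15 in null control and 8.23, 8.21 and 8.20 in null ethanol. The lowest wild-type array was above the highest null array. Colec11 was lower by -0.92 ± 0.13 on the control diet, by -1.08 ± 0.13 on ethanol and by -1.003 ± 0.09 averaged (limma adjusted p = 0.00214, 0.000789 and 3.11e-05), in all 12 fits without 1 array. Its relative Colec10 overlapped between genotypes, at 8.46 to 8.98 in the wild-type and 8.01 to 8.62 in the null arrays. With ethanol in null mice the smallest p of these markers was that of Tcf21, a transcription factor of stellate cells (-0.63 ± 0.18, adjusted p = 0.293).

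Markers of other cells that could carry matrix transcripts were set beside these values. Portal fibroblast and mesothelial markers gave 0 calls among 7 tested, cholangiocyte markers 0 of 3, hepatocyte markers 0 of 10 and lymphocyte markers 0 of 6 in each comparison. Over all genes 0.00713% to 7.0% were called, by comparison, so 0 calls in lists this short say little. Of 17 sinusoidal endothelial markers, 2 were called lower in null mice averaged over diets, Pecam1 (-0.37 ± 0.09) and Tek (-0.47 ± 0.12). This compares with 7.0% of all genes called in either direction. With ethanol in null mice 13 of the 17 had negative changes, against 61.9% of all genes, with 0 called. Their median was -0.16, beside -0.17 for the matrix and stellate cell genes. On the control diet 13 of the 17 were lower in null mice, against 48.1% of all genes. Their median there was -0.21, beside 0.16 for the matrix and stellate cell genes. On ethanol 16 of the 17 were lower in null mice, against 54.5% of all genes (median -0.31, beside -0.07). Both of these comparisons also gave 0 called. The summed linear intensity of the 17 was 10247 to 12268 in wild-type control, 10587 to 12413 in wild-type ethanol, 8946 to 11134 in null control and 7854 to 13384 in null ethanol. The part of these cells in the ethanol changes of null mice was not tested. Of 8 smooth muscle markers tested, only Mylk was called, against 5.10% of all genes on the control diet and 7.0% averaged. It was higher in null mice on the control diet (0.46 ± 0.12) and averaged (0.38 ± 0.08). The summed linear intensity of the 8 was 1595 to 1661 in wild-type control, 1610 to 1682 in wild-type ethanol, 1737 to 1845 in null control and 1734 to 1813 in null ethanol, and the dim ones, left out of the sum, were Cnn1 and Actg2. Without Mylk the sum of the other 7 was 1180 to 1251, 1194 to 1219, 1182 to 1301 and 1205 to 1238 in the same order, and these ranges overlapped. That of the 7 portal fibroblast and mesothelial markers was 502 to 521, 477 to 563, 459 to 553 and 465 to 526 in the same order. Their part in the Sparc difference was not tested.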

How the data were processed

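RNA of 12 liver samples, 3 per group by the labels, was measured with 1 array each. The deposited values are 1 linear intensity per probe set and array. The authors normalised them with RMA (robust multi-array average), as the submitters' processing notes state; no source used here gives its settings or the annotation build. They ran from 1.816 to 20156, and log2 was taken here. RMA sets all arrays on a shared distribution, so a shift of all transcripts would not be seen. Of 41345 probe sets, 23521 named 1 gene, 1814 several and 16010 none. Genes above the 40th percentile of their array on at least 3 arrays were tested.

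A model with 4 group means was fitted with limma 3.58.1 (R 4.3.3, all 12 arrays; lmFit, contrasts.fit, eBayes, with 8 residual and 4.95 prior degrees of freedom), with 7 contrasts and Benjamini-Hochberg adjustment over 14031 genes. A gene was called at an adjusted p under 0.05. The number of arrays limits the precision. The fit was tested on simulated data.

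The members and gene lists were chosen with earlier results of these data known. Values by array are given for genes called, for up to 4 with the smallest p per contrast, and for Col1a1, Col3a1, Timp1, Acta2, Lrat and Tgfb1; of other lists, called genes or up to 2 with the smallest p are named. Genes named beyond this rule were chosen after their values were seen. Same-numbered arrays did not deviate together (correlations from -0.146 to 0.191 over 18 pairs), so numbers were not used as a block. Alternatives were the filter, the probe set rule, normalisation, the variance model, array weights, a pseudocount of 16, the arrays in the fit, the block and each array left out. An array outside a pairwise comparison cannot move its log2 change when left out, and acts only through the pooled spread and the adjustment. Leaving out the second wild-type control and second null control arrays together was chosen after seeing the data. Promoter windows came from RefSeq, build GRCm38.p6.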

Additional observations from a re-analysis of the deposited data

How the results depend on the processing

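Of the counts of genes called, 48 of 68 values under other settings stayed within 1.5 times the main count in the 3 comparisons with calls. In the 4 comparisons with 0 calls, 89 of 90 values were again 0, which says little of stability. Of the medians, 151 of 158 moved by less than the replicate spread. Many of these settings cannot move a median: the variance model, the block, a fit of only the 2 groups compared, and an array left out from outside a pairwise comparison. This count therefore says little of stability as well. With array weights, 1 gene (Tgfb2) was called for ethanol in wild-type mice and 2 (Tgfb1 and Timp3) for genotype on ethanol, and the median genotype difference on the control diet was 0.2103. For genotype averaged over diets 1 gene was called without the filter, with arrays centred on their median, and with the second wild-type control and second null control arrays both left out. With those 2 arrays left out, 0 were called for genotype on the control diet, where the median was 0.0961, and the median ethanol change averaged over genotypes was -0.0161. The mean over probe sets turned the ethanol change of Col5a1 in wild-type mice to -0.0349 and its interaction to 0.0139; its second probe set runs the other way. The ethanol change of Acta2 in wild-type mice turned to -0.0245 with added quantile normalisation, -0.0262 with array weights and -0.128 without those 2 arrays, and its genotype difference on the control diet to -0.0401 with array weights. Array weights turned the genotype difference of Col1a1 on ethanol to 0.0309. The causes were not tested. Shares of all genes called under these settings are not given here.

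Leaving out 1 array at a time, 0 to 2 genes were called for genotype on the control diet, 0 to 1 on ethanol and 1 to 2 averaged over diets. Medians ran from -0.0033 to 0.0692 for ethanol in wild-type mice, from 0.0908 to 0.2034 for genotype on the control diet and from -0.2849 to -0.1655 for the interaction. With ethanol in wild-type mice Col3a1 ran from -0.0269 to 0.1286, Acta2 from -0.1772 to 0.2778 and Lrat from -0.0915 to 0.386. On the control diet the genotype difference ran from -0.0275 to 0.2941 for Col3a1, from -0.1149 to 0.3313 for Acta2 and from -0.0423 to 0.4353 for Lrat, and on ethanol from -0.1079 to 0.0155 for Col1a1. Where 1 array was left out, a pair stood for its group in the pooled fit.

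With the replicate number as a block (replicate block), 0, 0, 1, 1, 0, 0 and 2 genes of the set were called for ethanol in wild-type and null mice, genotype on control and ethanol diet, the interaction, ethanol averaged and genotype averaged, as without it. Over all genes the block gave 9, 0, 613, 229, 2, 0 and 884 calls, against 13, 1, 715, 251, 2, 2 and 982. The same-numbered arrays share only a number.

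Signal over background limits Lox, Timp1, Tgfb2, Thbs1 and Col5a2. With 3 arrays per group, the median SE of a pairwise change was 0.12, so most intervals include 0 and changes of moderate size; an absent call does not show equal levels.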
